A study of Rattus norvegicus with 415 samples.

Results

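Vegfa, Kdr, Flt1, Tek, Hif1a and Slc2a1, 6 genes of blood vessel growth and of the response to low oxygen, were followed through all adipose tissue samples of a series on outbred rats (Rattus norvegicus) aged 17 weeks. They were chosen by Ensembl identifier: ENSRNOG00000019598 for Vegfa, ENSRNOG00000046829 for Kdr, ENSRNOG00000000940 for Flt1, ENSRNOG00000008587 for Tek, ENSRNOG00000008292 for Hif1a and ENSRNOG00000007284 for Slc2a1. All 6 stood in a table of 18358 genes and passed the filter on low values. Lep, whose co-variation with these genes was also of interest, is not analysed here, since its identifier was not matched to a row of the table at hand. All samples carried the same tissue and age labels and no treatment, so the study's labels define 1 group and no comparison between groups. Outbred rats differ in genotype from animal to animal, and the series mapped metabolic traits and expression to the genome. Titles consist of a number and a suffix, neither of which the labels explain. The number, called the title number here, recurred on more than 1 sample in 89 cases, which cover 44.8% of the samples, so some samples may share an origin, and p-values over samples measure the spread between samples only. The identity of the tissue was not checked against adipocyte markers, because the table pairs no identifier with a gene name.

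Blood vessels grow into a tissue when its cells secrete VEGF-A, the product of Vegfa, which binds receptor tyrosine kinases on endothelial cells. Kdr encodes the receptor that carries most of the growth signal, Flt1 encodes a receptor that binds the same ligand tightly and also exists as a soluble decoy, and Tek encodes the endothelial receptor for angiopoietins. Hif1a encodes the oxygen-regulated subunit of the transcription factor HIF-1, which is controlled largely by the stability of its protein and not by its mRNA. Vegfa and Slc2a1, a plasma membrane glucose transporter, are well-known targets of that factor. In growing fat, adipocytes are a main source of VEGF-A, while the 3 receptors mark the capillary endothelium.

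RefSeq promoter windows (GRCr8 build) were found by symbol for 5 of the 6 genes; Tek had none. The 250 bases before the annotated start were searched on both strands for the core letters that HIF binds, ACGTG and GCGTG, and ACGTG overlaps its own complement in the palindrome CACGTG. The windows of 4 genes are shown because they hold such letters, which are in capitals (CACGT and CACGC are the same letters read on the other strand).
Kdr (chr14:32571813-32572062, + strand): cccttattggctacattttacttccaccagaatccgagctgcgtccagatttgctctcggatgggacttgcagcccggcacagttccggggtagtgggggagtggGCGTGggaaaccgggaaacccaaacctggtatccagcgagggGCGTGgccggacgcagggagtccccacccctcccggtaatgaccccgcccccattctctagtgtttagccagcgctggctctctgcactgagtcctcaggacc
Flt1 (chr12:12333180-12333429, + strand): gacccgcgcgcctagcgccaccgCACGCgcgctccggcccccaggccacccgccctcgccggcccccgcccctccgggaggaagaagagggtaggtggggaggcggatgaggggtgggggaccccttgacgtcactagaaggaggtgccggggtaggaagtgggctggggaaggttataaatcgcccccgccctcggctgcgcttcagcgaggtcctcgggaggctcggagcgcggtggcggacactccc
Hif1a (chr6:98359648-98359897, + strand): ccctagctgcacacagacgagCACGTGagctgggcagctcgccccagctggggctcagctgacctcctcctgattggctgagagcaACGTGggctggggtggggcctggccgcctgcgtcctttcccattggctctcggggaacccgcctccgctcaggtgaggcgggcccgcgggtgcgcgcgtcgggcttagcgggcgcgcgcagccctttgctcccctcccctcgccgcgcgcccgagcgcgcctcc
Slc2a1 (chr5:138002272-138002521, + strand): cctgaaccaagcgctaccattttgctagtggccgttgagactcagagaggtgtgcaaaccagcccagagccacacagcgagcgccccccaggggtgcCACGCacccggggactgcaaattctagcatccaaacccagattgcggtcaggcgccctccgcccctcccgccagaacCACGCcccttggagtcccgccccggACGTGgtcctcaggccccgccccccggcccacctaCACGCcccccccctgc
Slc2a1 had 4 matches, of which the nearest began 76, 51 and 16 bases before the start, and 2.44% of all 33469 windows held at least 4. Kdr had 2 matches, where 16% of windows held at least 2, and Flt1 had 1. Hif1a had 3 matches, of which the first pair is that palindrome read on each strand. Neither of the 2 Vegfa windows held a match, which says only that these letters are not in those windows. At least 1 match was present in 36.7% of all windows, so the matches in Kdr and Flt1 are common ones. The bases G and C made up 68.4% of the window of Slc2a1, 73.6% of Hif1a, 73.2% of Flt1 and 61.6% of Kdr. They made up 60.4% and 56% of the Vegfa windows, and the median over all windows was 51.2%. The shares of windows given here were not matched for base content. A match is a string of letters and was not tested as a binding site.

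Reads assigned to genes ranged from 2139163 to 6248214 per sample with a median of 4602134, and 12 samples had fewer than 3500000. Gaps above 500 in the title numbers separated 3 blocks with 9.4%, 55.9% and 34.7% of the samples. They are treated as candidate batches, and the labels name no such division. Levels are given as deposited FPKM, which are reads divided by gene length and by a scaling factor of the sample, so that levels of different genes can be set side by side. Differences and correlations are on the log2(FPKM + 1) scale, and n is the full set of samples unless a block is named.

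Tek and Vegfa were the highest of the 6 genes, Hif1a followed, Kdr and Flt1 came next at nearly the same level, and Slc2a1 was far below. Against a median of 15.5 for the mean FPKM of the 16131 genes kept (FPKM above 1 in at least 20% of samples), 5 of the 6 genes were high. Tek ran from 40.2 to 77.4 FPKM with a median of 62.3, and its mean of 61.8 ± 5.96 (SD) was above that of 91.8% of genes. Vegfa ran from 36.7 to 79.9 FPKM with a median of 58.6 and a mean of 58.9 ± 6.48 (SD). The ranges of the angiopoietin receptor and of the ligand overlapped almost fully. Hif1a ran from 39.2 to 67.2 FPKM with a median of 45.6 and a mean of 46.2 ± 3.71 (SD). Kdr ran from 20.3 to 53.04 FPKM with a median of 38.2 and a mean of 37.9 ± 5.31 (SD). Flt1, the other VEGF receptor, ran from 16.5 to 51.95 FPKM with a median of 37.2 and a mean of 36.8 ± 5.74 (SD). Slc2a1 ran from 3.51 to 25.7 FPKM with a median of 10.5, and its mean of 11.6 ± 3.65 (SD) exceeded that of 42.5% of genes. Its range did not reach that of Vegfa, Tek or Hif1a.

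**Figure D1:**
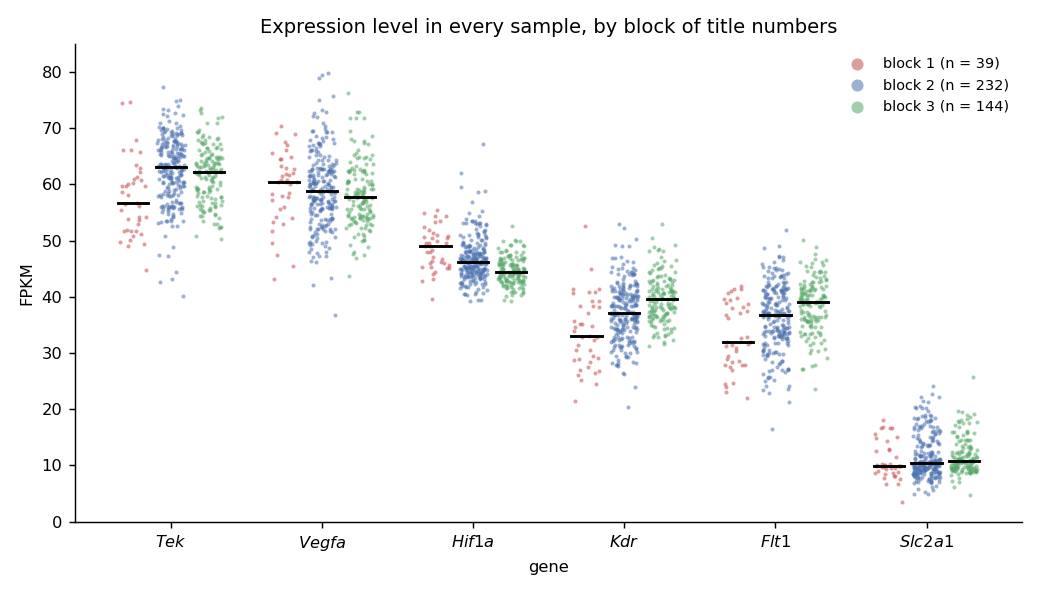
FPKM (vertical axis) of each gene in every sample, 1 point per sample, with the 3 blocks of title numbers side by side and a black bar at each block's median. Tek and Vegfa lie highest and Slc2a1 lowest, Kdr and Flt1 have lower medians in block 1 (33.1 and 31.9 FPKM) than in block 3 (39.6 and 39.1), and Slc2a1 has a long upper tail.

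Neighbours in this order were compared within samples by a two-sided permutation test that flips the signs of the samples' log2 differences at random, in 5 comparisons. The order was taken from the medians of these same samples, so the test gives no independent evidence for it. The p-values concern differences in deposited FPKM between genes. Tek exceeded Vegfa in 65.1% of samples, by a mean of 0.07 on the log2 scale, less than the SD of that difference between samples, 0.21. Kdr exceeded Flt1 in 57.1% of samples by a mean of 0.05, again well inside the SD of 0.18. The mean difference of both pairs passed the permutation test (p = 1e-05, the floor of 100000 permutations), but single samples often had the reverse order. Vegfa exceeded Hif1a in 95.9% of samples, Hif1a exceeded Kdr in 89.9%, and Flt1 exceeded Slc2a1 in 100% (p = 1e-05 for each).

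The genes differed in how much they varied. Hif1a was among the steadiest genes of the table, its SD of log2 values being 0.11, above that of 5.43% of genes. Tek (0.14) and Vegfa (0.16) also lay below the median SD of all genes, 0.24, while Kdr (0.20) and Flt1 (0.23) lay near it. Slc2a1 was the most variable of the 6, with an SD of 0.40, above 74.2% of genes, and its highest sample was 7.31 times its lowest. For Hif1a that ratio was 1.71. The variance between samples exceeded counting variance in all 6 genes, by 5.32 times in Hif1a, 13.6 times in Slc2a1 and 28.2 times in Flt1. Counting variance covers the sampling of reads only, and other technical variance was not tested. Slc2a1 rested on the fewest reads, 140.5 per sample on average and 23 at the least, against averages from 845 in Hif1a to 1296 in Tek.

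The shape of the spread also differed. Slc2a1 had most samples between 9.22 and 13.7 FPKM, its quartiles, and an upper tail that reached 25.7. Described as 2 normal components, its upper component held 27.2% of samples, 2.76 SDs above the lower one. Flt1 had its tail on the other side: 81.6% of samples fell in its upper component, 2.61 SDs above the lower. Hif1a had 13% of samples in a higher component 2.50 SDs away. For Vegfa a single component described the values better by the Bayesian information criterion. These components are descriptions, and none of the 6 genes reached a separation of 3 SDs.

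Some of this spread moved with sequencing depth. Across all genes 70% changed with log2 reads per sample in limma (adjusted p under 0.05 by Benjamini and Hochberg's method). They split into 41.7% that rose with depth and 28.3% that fell. Of the 6 genes 5 did, 1 upward and 4 downward. Hif1a fell as depth rose, at a correlation of -0.50 (Pearson's r) or -0.33 (Spearman's rho) (permutation p = 1e-05 for both; limma adjusted p = 4.268e-26). Dropping the 2 samples of most extreme depth gave r = -0.44. It was -0.62, -0.52 and -0.21 within blocks 1, 2 and 3 (permutation p = 2e-05, 1e-05 and 0.01085). In the 12 shallow samples Hif1a lay between 49.7 and 67.2 FPKM, all above the median of the others, 45.5. Slc2a1 moved the opposite way (r = 0.30, rho = 0.22, permutation p = 1e-05 for both; limma adjusted p = 1.191e-09), and its median was 6.52 FPKM in the shallow samples against 10.5 in the others. Its r was 0.28 without the 2 farthest samples, and 0.41, 0.34 and 0.12 within the blocks (permutation p = 0.01209, 1e-05 and 0.13613). The block 1 value rests on 2 samples, since it was 0.030 without the 2 of most extreme depth (rho = 0.26, p = 0.10937 with them). The lowest Slc2a1 value and the highest Hif1a and Tek values came from samples among the 5 shallowest. All 12 shallow samples lay near the low end of the title numbers, and none lay in block 3. Depth and title number are therefore mixed in the contrasts of Hif1a and Slc2a1 between shallow samples and the others. Tek (r = -0.28), Kdr (-0.15) and Vegfa (-0.12) also fell with depth over all samples (limma adjusted p = 1.636e-08, 0.004979 and 0.02643), and Flt1 did not pass the test (r = 0.05, adjusted p = 0.3394). Within blocks 1, 2 and 3, r with depth was -0.47, -0.30 and -0.28 for Tek and -0.25, -0.23 and -0.22 for Kdr. For Vegfa it was 0.25, -0.074 and -0.33. The block 1 values again rest on 2 samples: without the 2 of most extreme depth they were -0.18 for Tek, 0.012 for Kdr and -0.25 for Vegfa. Correlations between pairs of the 6 genes that passed the test are therefore also given below with log2 reads as a covariate. The part of read density in it was not tested; mean reads per bp were 0.284 for Tek, 0.271 for Vegfa, 0.212 for Hif1a and 0.0542 for Slc2a1.

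The 3 endothelial receptors varied together. Flt1 and Tek had the closest relation of the 15 pairs, with r = 0.72 and rho = 0.68, Kdr and Flt1 had r = 0.66 and rho = 0.63, and Kdr and Tek had r = 0.57 and rho = 0.52 (permutation p = 1e-05 for all 6 coefficients). Dropping the 2 samples most extreme in the first-named gene gave 0.70, 0.65 and 0.54. Within blocks 1, 2 and 3, Flt1 and Tek had r = 0.78, 0.70 and 0.75, and Kdr and Flt1 had r = 0.77, 0.67 and 0.44. For Kdr and Tek the values were 0.69, 0.58 and 0.43, and the permutation p was at most 2e-05 for every one of these 9 values. With log2 reads as a covariate the 3 correlations were 0.76, 0.68 and 0.55, in the same order. In 1 bulk sample, fewer endothelial cells and less receptor RNA per cell cannot be told apart.

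**Figure D2:**
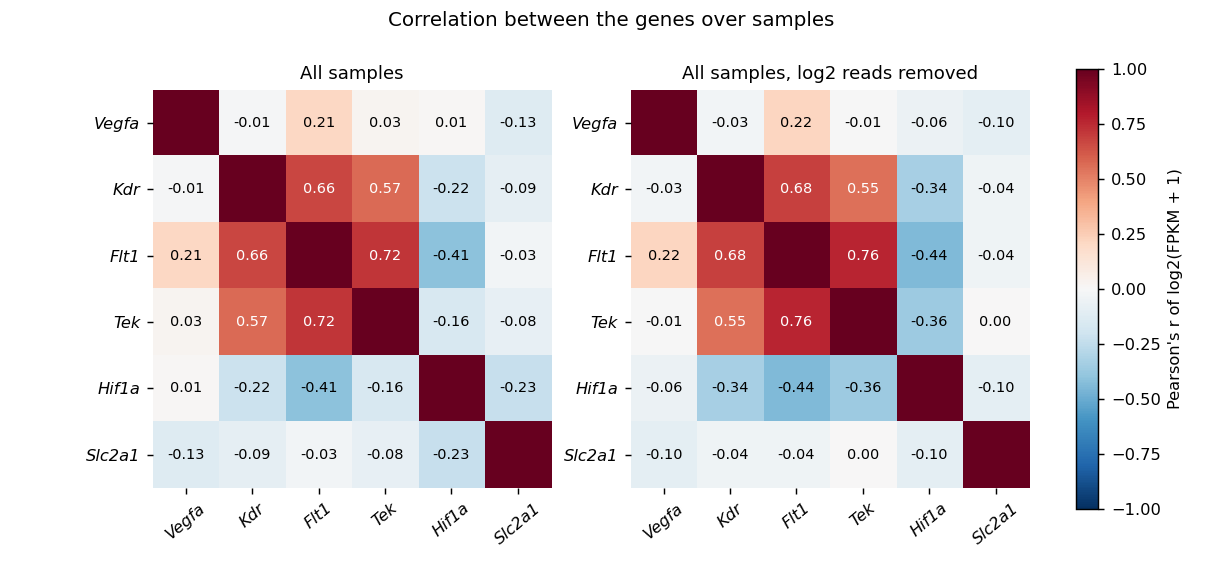
Pearson's r between the 6 genes over all samples, on the log2(FPKM + 1) scale (colour and printed value), as measured on the left and with log2 reads per sample removed on the right. Kdr, Flt1 and Tek form a block of r from 0.57 to 0.72 on the left, and Hif1a is negative against all 3. The r of Vegfa on the left runs from -0.13 with Slc2a1 to 0.21 with Flt1.

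Among the 16130 other genes, the receptors ranked near the top of each other's lists. Flt1 was the 13th gene most correlated with Kdr, and Tek was the 52nd. For Tek, Flt1 was 10th and Kdr 62nd, and for Flt1, Tek was 49th and Kdr 92nd. Associations as such were common: 22.9% of all genes were positively associated with Kdr, 29.7% with Flt1 and 19.8% with Tek in limma at an adjusted p under 0.05. Negative associations covered 23.2%, 35.3% and 26.1% of all genes, and either direction 46.2%, 65% and 45.9%. The size of r sets the receptors apart from most genes, since the 95th percentile of r over all genes was 0.28 for Kdr, 0.40 for Flt1 and 0.28 for Tek. The genes most like Kdr were ENSRNOG00000046377 (r = 0.75) and ENSRNOG00000013324 (r = 0.73), and the least like it were ENSRNOG00000017222 (r = -0.45) and ENSRNOG00000004657 (r = -0.43). They are given by identifier because the table pairs none with names.

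**Figure D3:**
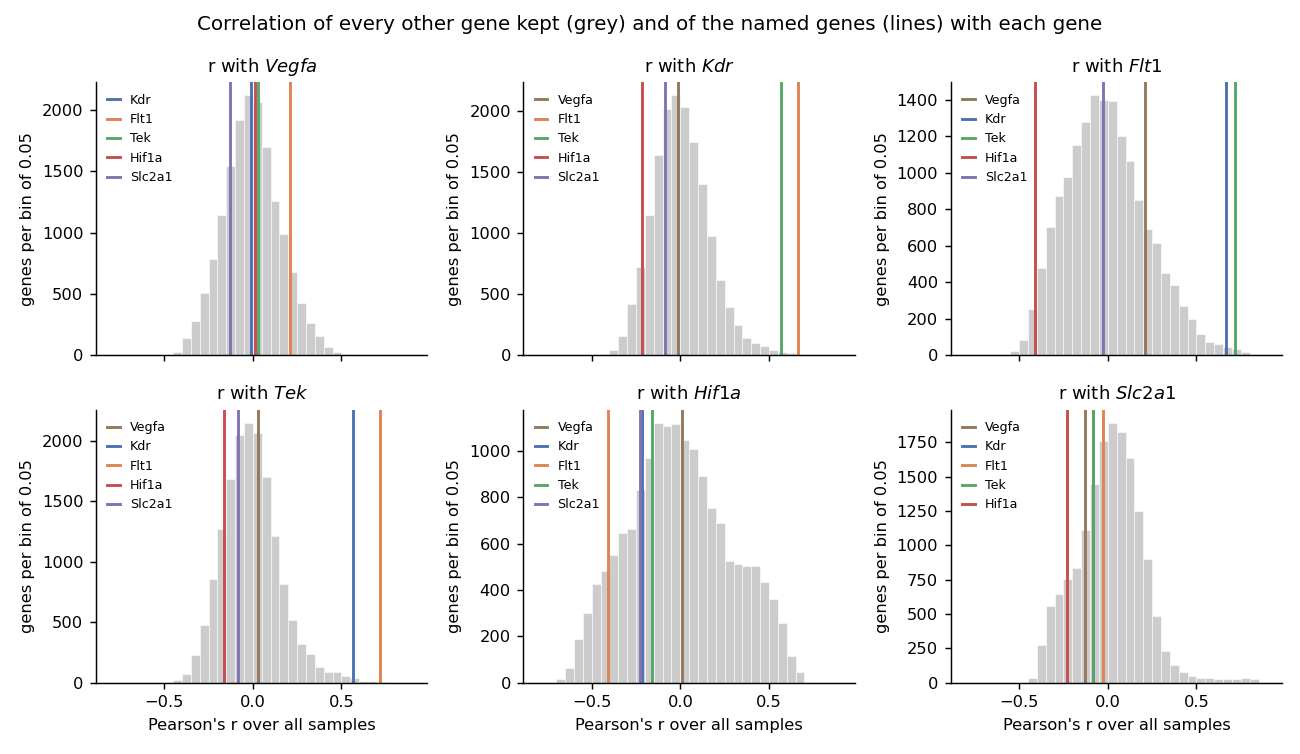
Distribution of Pearson's r over all samples between each of the 6 genes (1 panel each) and all other genes kept (grey bars, genes per bin of 0.05), with coloured lines at the r of the other 5 genes. In the panels of Kdr, Flt1 and Tek the lines of the other receptors lie beyond the bulk of genes, while Vegfa and Slc2a1 have all 5 lines inside it.

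Among the receptor pairs, those with Flt1 kept the larger partial correlations. With Kdr held fixed, Flt1 and Tek kept a partial r of 0.55, and with Tek held fixed, Kdr and Flt1 kept 0.45 (permutation p = 1e-05 for both). With Flt1 held fixed, the partial r of Kdr and Tek was 0.17 (p = 0.00046). These partial correlations were chosen after the data were seen and were not computed with log2 reads or the title number as a covariate. The part of measurement precision in them was not tested. The median ratio of Kdr to Flt1 was 1.03 and the SD of its log2 value was 0.19, smaller than the SD of Flt1 alone. Single samples show both shared and separate variation. The sample with the lowest Kdr, 20.3 FPKM, ranked 2nd from the bottom for Tek and 4th for Flt1. The sample with the lowest Tek, 40.2 FPKM, ranked 2nd from the bottom for Flt1 but 59th for Kdr.

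For Vegfa, the ligand, no relation with Kdr or Tek passed the test over all samples. Its r with Kdr was -0.01 (rho = -0.02; permutation p = 0.80479 and 0.68671), with Tek 0.03 (rho = 0.02; p = 0.59243 and 0.63906), and the limma adjusted p was 0.8586 and 0.6877. In the 39 samples of block 1, Vegfa had r = -0.38 with Kdr (p = 0.01672) and -0.36 with Tek (p = 0.02489), but these rest on 2 samples. Without the 2 most extreme in Vegfa they were -0.18 and -0.057, and rho was -0.25 and -0.27 (p = 0.11739 and 0.1023). Blocks 2 and 3 gave r between 0.06 and 0.13 for both (p of at least 0.13408). In 49.9% of samples Vegfa and Kdr lay on the same side of their medians, and in 73.5% Kdr and Flt1 did. Of the 5 other genes, 1 was positively and 1 negatively associated with Vegfa, where 47.4% of all genes were associated, 25% negatively. Vegfa did rise with Flt1 (r = 0.21, permutation p = 5e-05; rho = 0.15, p = 0.00158; limma adjusted p = 0.0001057, where 22.3% of all genes were positively associated with Vegfa). Dropping the 2 samples of most extreme Vegfa gave 0.16 (p = 0.00086). One of these samples held the lowest value of both genes, 36.7 FPKM of Vegfa and 16.5 of Flt1, at 4846807 reads. Within blocks 2 and 3 the r of Vegfa and Flt1 was 0.28 and 0.27 (p = 1e-05 and 0.00094), and in the 39 samples of block 1 it was -0.10 (p = 0.55744). With log2 reads as a covariate it was 0.22 (p = 1e-05).

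**Figure D4:**
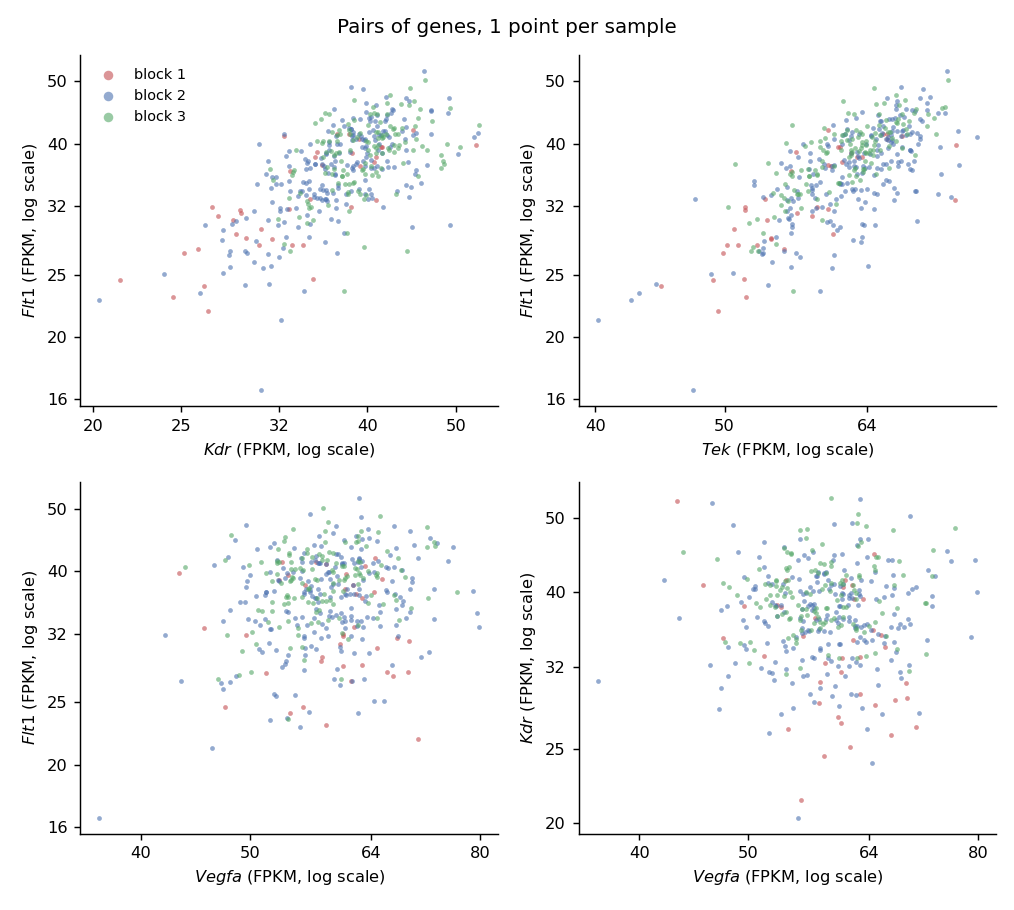
FPKM of pairs of genes on log axes, 1 point per sample, coloured by block of title numbers. Flt1 rises with Kdr and with Tek in every block, while the clouds of Vegfa against Flt1 and against Kdr are wide, with r of 0.21 and -0.01.

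The difference between these correlations was tested directly, by correlating Vegfa with the difference of the standardized receptor values. Vegfa correlated more with Flt1 than with Kdr (r with the difference 0.27, permutation p = 1e-05) and more with Flt1 than with Tek (0.24, p = 1e-05). With log2 reads as a covariate these values were 0.31 and 0.32 (p = 1e-05 for both). This test was chosen after the data were seen, and 8 such correlations with a difference were computed beside the 3 partial correlations. Flt1 had a wider spread of r with genes in general. Its 5th and 95th percentiles were -0.35 and 0.40, against -0.24 and 0.28 for Kdr and -0.25 and 0.28 for Tek. The share of all genes with such a difference was not computed, for Vegfa or for Hif1a below.

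Hif1a varied opposite to the receptors. Its r was -0.41 with Flt1 (rho = -0.40), -0.22 with Kdr (rho = -0.25) and -0.16 with Tek (rho = -0.18), with permutation p of 1e-05, 2e-05 and 0.00108 for r. The limma adjusted p was 2.192e-17, 2.038e-05 and 0.001848, and Slc2a1 brought the count to 4 of 5 genes negatively associated with Hif1a and 0 positively. Of all genes 72.9% were associated with Hif1a, 34.4% positively and 38.5% negatively. Among the other genes, 8.61% had a lower r with Hif1a than Flt1 had, 24.1% than Kdr and 30.5% than Tek. The 5th percentile of r with Hif1a over all genes was -0.47, so none of the 3 receptors lay in that tail. With log2 reads as a covariate the 3 values of r were -0.44, -0.34 and -0.36 (p = 1e-05 for each). The shares of genes with a lower r were then 2.42%, 7.59% and 5.94%. With a spline of the title number rank and log2 reads as covariates, r was -0.32 for Flt1, -0.18 for Kdr and -0.27 for Tek. The permutation p was 1e-05, 0.00029 and 1e-05. The relations did not hold in every block. For Flt1 and Hif1a, r was -0.36, -0.42 and -0.12 within blocks 1, 2 and 3 (p = 0.02494, 1e-05 and 0.15003). For Kdr it was -0.19, -0.13 and -0.0012 (p = 0.24771, 0.04184 and 0.98928), and for Tek -0.10, -0.16 and -0.07 (p = 0.55608, 0.01201 and 0.40704). The block 1 values depend on 2 samples here too. Without the 2 most extreme in the receptor, r in block 1 was -0.29 for Flt1, -0.32 for Kdr and -0.34 for Tek. With them, rho in block 1 was -0.41, -0.25 and -0.20 (permutation p = 0.00996, 0.11641 and 0.21423). Hif1a was more negatively correlated with Flt1 than with Kdr (r with the difference -0.24) and than with Tek (-0.33), both with permutation p = 1e-05. After log2 reads these values were -0.13 and -0.12 (p = 0.00705 and 0.01846). Hif1a varied less in block 3, with an SD of 0.08 against 0.12 in block 2.

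Hif1a mRNA showed no relation to Vegfa mRNA that passed the test over all samples (r = 0.01, rho = 0.08; permutation p = 0.82824 and 0.10463; limma adjusted p = 0.8804). Within block 3 the r was 0.18 (p = 0.03432), and within blocks 1 and 2 it was -0.16 and -0.06 (p = 0.32146 and 0.40216). Hif1a and Slc2a1 had r = -0.23 and rho = -0.19 (p = 1e-05 and 0.00015; limma adjusted p = 4.881e-06), and r was -0.10 with log2 reads as a covariate (p = 0.04865). Within blocks 1, 2 and 3 the r of Hif1a and Slc2a1 was -0.15, -0.23 and -0.23 (permutation p = 0.34999, 0.00044 and 0.00532). Both genes moved with depth over all samples, in opposite directions, as given above. The part of depth in their relation was not tested. Slc2a1 was lower where Vegfa was higher (r = -0.13, p = 0.00748; rho = -0.13, p = 0.01032; limma adjusted p = 0.01828), with r = -0.10 and p = 0.03775 after log2 reads. Within blocks 1, 2 and 3 that r was 0.15, -0.17 and -0.13 (p = 0.36028, 0.00985 and 0.10839). None of the 3 receptors passed the test against Slc2a1 (r from -0.09 to -0.03). In block 1 Kdr had r = -0.36 with it (p = 0.02517; rho = -0.33, p = 0.03862), and -0.29 without the 2 samples most extreme in Kdr. Tek had -0.32 there (p = 0.04741), which rests on 2 samples: it was -0.042 without the 2 most extreme in Tek, and rho was -0.17 (p = 0.3027). Of the 5 other genes, 2 were thus associated with Slc2a1, both negatively, where 53.9% of all genes were, 29.1% positively and 24.8% negatively. Slc2a1 had closer companions elsewhere in the table, the closest with r = 0.84, while the closest to Vegfa had r = 0.58.

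Along the title numbers, Kdr, Flt1 and Tek rose and Hif1a fell, so 4 of the 6 genes changed, where 61.3% of all genes did (31% upward and 30.2% downward). From the lowest to the highest number, Flt1 rose by 0.32 on the log2 scale (SE 0.04, limma adjusted p = 1.396e-15) and Kdr by 0.28 (SE 0.03, adjusted p = 3.709e-16). Tek rose by 0.09 (SE 0.02, adjusted p = 0.0001746), and Hif1a fell by 0.17 (SE 0.02, adjusted p = 4.137e-21). Vegfa and Slc2a1 had changes of -0.05 and 0.07 (adjusted p = 0.1054 and 0.345). Without the 12 samples under 3500000 reads, all of which had low title numbers, the change of Vegfa was -0.07, and it passed (adjusted p = 0.01785). Over blocks 1, 2 and 3 in turn, mean Kdr was 33.7 ± 6.48, 37.4 ± 5.21 and 39.8 ± 4.25 FPKM (SD). Mean Flt1 was 32.9 ± 5.94, 36.4 ± 5.88 and 38.5 ± 4.77 FPKM, and mean Hif1a 48.6 ± 3.72, 46.8 ± 3.97 and 44.6 ± 2.45. The differences between blocks 1 and 3 were close to the SD within block 1 and larger than the SD within block 3, and the ranges overlapped. Mean Tek was 57.7 ± 6.82, 62.5 ± 6.08 and 61.8 ± 5.03 FPKM (SD), so it was not higher in block 3 than in block 2. Kdr, Flt1, Tek and Hif1a also differed over the blocks (limma F test, adjusted p = 2.572e-10, 3.834e-07, 4.292e-05 and 3.155e-10), where 53% of all genes did.

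**Figure D5:**
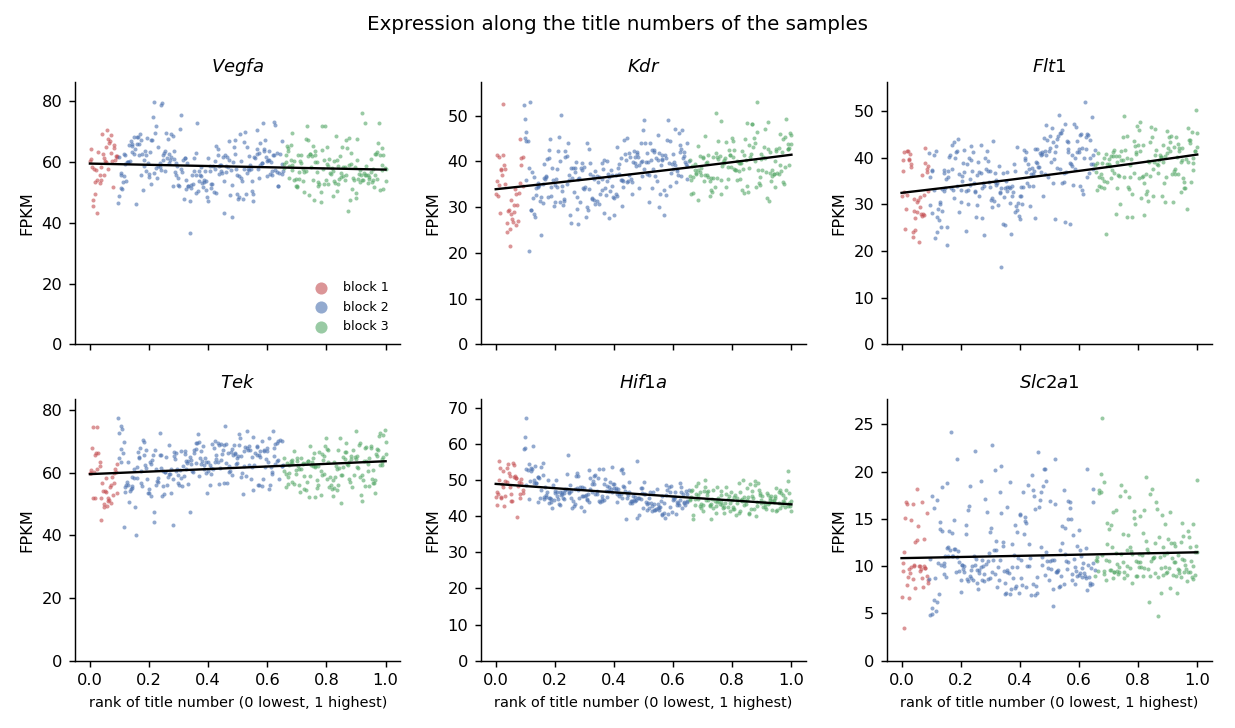
FPKM of each gene against the rank of the sample's title number (0 lowest, 1 highest), coloured by block, with the line fitted on the log2(FPKM + 1) scale. The lines of Kdr and Flt1 climb by 0.28 and 0.32 on the log2 scale, that of Hif1a falls by 0.17, and those of Vegfa and Slc2a1 are nearly flat.

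The trend did not hold within every block. A change within a block runs from its own lowest to its own highest number, a shorter span than that of the whole series. In block 2 Kdr, Flt1 and Tek rose by 0.20, 0.34 and 0.14 and Hif1a fell by 0.19 (limma adjusted p = 2.397e-05, 5.93e-10, 3.099e-05 and 2.286e-13). In block 3 Kdr rose by 0.13 (limma adjusted p = 0.03459), while Hif1a had a change of 0.01 (adjusted p = 0.8666). Flt1 and Tek had changes of 0.14 and 0.093 there, which did not pass (adjusted p = 0.07143 and 0.06247). In the 39 samples of block 1 none of the 6 genes passed (adjusted p of at least 0.5254). With log2 reads as a covariate, the changes of Kdr, Flt1, Tek and Hif1a over all samples were 0.34, 0.33, 0.14 and -0.13.

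Samples with the same title number resembled each other in 5 of the 6 genes. Over the samples with a shared number, 57.5% of all genes differed between numbers (limma F test, adjusted p under 0.05). Hif1a differed most clearly (adjusted p = 1.255e-07), followed by Kdr (8.994e-07), Tek (3.751e-05), Flt1 (0.0001667) and Vegfa (0.0001668). Slc2a1 did not pass (adjusted p = 0.3902). Resemblance, measured as the intraclass correlation of pairs that share a number, was 0.55 for Hif1a, above 97.6% of genes, and 0.47 for Kdr, above 92.6%. It was 0.43 for Tek, 0.38 for Vegfa and 0.35 for Flt1, against a median of 0.23 over all genes. For Slc2a1 it was 0.03, and 12.1% of genes had less. The typical difference between 2 same-number samples was 0.06 on the log2 scale for Hif1a, against 0.10 between any 2 samples. For Slc2a1 it was 0.35 against 0.36, so its wide spread was found almost in full between samples of the same number. Removing a spline of the title number rank and log2 reads left resemblances of 0.40 for Vegfa, 0.37 for Hif1a, 0.32 for Kdr, 0.30 for Tek, 0.24 for Flt1 and 0.02 for Slc2a1. The median over all genes was then 0.148, and 5012 of 16131 genes passed the test between numbers, the same 5 of the 6 genes among them.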

How the data were processed

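Per the labels' protocols, single-end 75 bp sequencing was done on RNA of snap-frozen adipose tissue. The authors deposited FPKM, and the submitters' processing notes name STAR, Picard, featureCounts and DESeq2; the build and annotation are not given in the sources used here. Whole reads per gene were recovered from the deposited FPKM (100% of values, tolerance 0.001) and set the depth. Genes above 1 FPKM in at least 20% of samples (16131 of 18358) were analysed as log2(FPKM + 1). Limma 3.58.1 in R 4.3.3 fitted the rank of the title number (0 to 1), blocks at gaps above 500, shared numbers, log2 reads and each gene as regressor, with Benjamini-Hochberg adjustment over all genes. Correlations over 15 pairs used 100000 two-sided permutations. On simulated data with 200 changed genes of 16131, 98.5% were found for the trend, at a change of 1 SD from lowest to highest rank. That simulation used independent normal noise without shared numbers or depth effects, and smaller trends were not simulated. The named genes are the 6 and, by rule, the genes most and least correlated with Kdr. Symbols of the 6 come from the gene list; 0 identifiers matched the gene table, so pathway and cell type marker lists were not run. The genes and lists were chosen with earlier results of these data known. Alternatives were other pseudocounts, scaling, filters, covariates, blocks, and voom on the recovered reads.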

Additional observations from a re-analysis of the deposited data

How the results depend on the processing

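Among the alternatives run, the count of genes called stayed within 1.5 times the reported one in 66 of 83 cases. The same-number test of single genes kept its side of the threshold in all 36 cases. Trend along the title number: limma called 0 genes within block 1 (1526 at an unadjusted p under 0.05) and 1053 within block 3. Changes within a block span only that block's numbers. Within block 1 the log2 changes were 0.25 for Vegfa, -0.11 for Kdr, -0.090 for Flt1, -0.19 for Tek and 0.0035 for Hif1a. Within block 3 they were 0.14 for Flt1, 0.093 for Tek, 0.0082 for Hif1a and -0.21 for Slc2a1, and none of these passed. Slc2a1 had -0.044 with log2 reads as a covariate and -0.017 without samples under 3500000 reads, where Vegfa had -0.072. The same-number test called 5012 genes with the spline and log2 reads as covariates. Genes associated within blocks 1 and 3 numbered 2166 and 3196 for Vegfa, 1234 and 1463 for Kdr (4510 in block 2), 1990 and 4173 for Flt1, 1208 and 2948 for Tek, 6129 and 2691 for Hif1a, and 690 and 3328 for Slc2a1 (5545 with log2 reads as a covariate). Each block holds fewer samples than the full set. The part of sample number in these counts was not tested, nor was any other cause.

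For pairs, r within block 1 was -0.38 for Vegfa and Kdr, -0.10 for Vegfa and Flt1, -0.36 for Vegfa and Tek, -0.16 for Vegfa and Hif1a, 0.15 for Vegfa and Slc2a1, -0.19 for Kdr and Hif1a, -0.36 for Kdr and Slc2a1, -0.10 for Tek and Hif1a, -0.32 for Tek and Slc2a1, and -0.15 for Hif1a and Slc2a1. Several of these rest on 2 samples: without the 2 farthest from the median of the first gene, r in block 1 was -0.18 for Vegfa and Kdr, -0.057 for Vegfa and Tek, -0.24 for Vegfa and Slc2a1, 0.035 for Vegfa and Hif1a, and -0.042 for Tek and Slc2a1. Without those 2 it was -0.32 for Kdr and Hif1a, -0.34 for Tek and Hif1a, and -0.28 for Hif1a and Slc2a1, each more negative than with them. For Vegfa and Flt1 it was -0.012, and for Kdr and Slc2a1 -0.29. In block 2, r over all samples of the block was 0.073 for Vegfa and Kdr and -0.055 for Vegfa and Hif1a. In block 3 it was 0.057 for Vegfa and Kdr, 0.18 for Vegfa and Hif1a, -0.13 for Vegfa and Slc2a1, -0.0012 for Kdr and Hif1a, -0.12 for Flt1 and Hif1a, and -0.069 for Tek and Hif1a. Vegfa and Kdr had 0.0096 with the spline and log2 reads, and 0.032 without samples under 3500000 reads. Vegfa and Tek had -0.0034 without the 2 farthest samples, -0.025 by plain read totals, -0.011 with 1 sample per title number and -0.0069 with log2 reads. Vegfa and Hif1a had -0.016 by plain read totals, -0.055 with log2 reads and -0.094 with the spline too. Flt1 and Slc2a1 had 0.0010 without the 2 farthest samples. Tek and Slc2a1 had 0.0016 with log2 reads and 0.00029 with the spline too. The planned association with Lep was not run. Slc2a1 has the fewest reads, so its values are the least precise.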
